A study of Mus musculus with 16 samples.

Results

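The genes described here are 9 members of the TGF-beta pathway, namely the ligands Tgfb1, Tgfb2 and Tgfb3, the receptors Tgfbr1, Tgfbr2 and Tgfbr3, the signal carrier Smad3 and the inhibitors Smad7 and Skil. Each was given a window made of its gene body and 50 kb to either side (mm10, GENCODE M21), and every ChIP-seq summit inside a window was taken. This gave 191 of the 227116 summits in 13 libraries, at 9 of 21911 protein coding genes, and the windows cover 1.53 Mb or 0.0560% of chromosomes 1 to 19, X and Y. Summits within 100 bp of each other merged into 156 sites.

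The cells were OG2 mouse embryonic fibroblasts, which carry a GFP reporter for endogenous Oct4, transduced with pMX retroviruses and kept in the defined medium iCD1, with day 0 at the change of medium. All cocktails held Sox2 and Klf4 (SK) with a POU factor added. Oct4 was precipitated in Oct4-SK cells on days 1, 5 and 7. Oct4defSox2, an Oct4 mutant impaired in pairing with Sox2 on DNA, was precipitated on days 1 and 5. Oct4 S151M, an Oct4 mutant that homodimerises more readily, and Oct6 M151S, the reciprocal Oct6 mutant, were precipitated on day 1, although a second label places the Oct6 M151S sample on day 2. For Sox2 the study's methods name 2 antibodies without assigning them to samples, so Sox2 libraries may differ in antibody, which was not tested. Sox2 was precipitated on days 1 and 5 in Oct4-SK, Oct4defSox2-SK and Oct6-SK cells. Each of these groups had 1 library, so no difference below has a replicate check, no p-value is given, and all 95% intervals cover counting error only. The 3 inputs among the 16 samples were not analysed here, and neither was ChIP of wild-type Oct6. The libraries held from 1038 summits (Oct4defSox2, day 5) to 101170 summits (Oct4 S151M), and read depth is unknown here. Oct6 M151S stood apart in its scores, with a lowest value of 2.30 against 4.00 to 4.12 in the other libraries, and 12934 of its 22804 summits scored under 4. The score is the -log10 p of the peak caller at the summit.

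TGF-beta ligands bind a pair of serine/threonine kinase receptors, in which the type II receptor Tgfbr2 activates the type I receptor Tgfbr1, while Tgfbr3 (betaglycan) is a co-receptor that presents ligand. Active Tgfbr1 phosphorylates Smad3, which enters the nucleus with Smad4 and drives fibroblast and mesenchymal genes. Smad7 blocks the type I receptor, and Skil (SnoN) represses Smad target genes in the nucleus. In fibroblasts TGF-beta signalling upholds the mesenchymal state, and its inhibition is known to favour reprogramming.

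A single site stood out in the number of libraries that shared it. It lies in an intron of Tgfbr1, 46.7 kb downstream of the 5′ end of the gene, and its summits span chr4:47399851-47399901. The stretch below is printed because 6 libraries had a summit there, on the minus strand from chr4:47399826-47399943 (GRCm38.p6, RefSeq), with a SoxOct match followed by an AP-1 match in capitals. SoxOct is the composite element of Sox2 and Oct4, matched by its name's consensus with up to 2 mismatches, and AP-1 is the element of Fos and Jun, matched as TGACTCA or TGAGTCA. The SoxOct match holds the octamer ATGCAAAT, the element of single POU factors, and shares its last base with the AP-1 match. Both mismatches of the SoxOct match lie before the octamer, in the Sox part. The label thus rests mostly on the octamer, and the match was lost with 1 mismatch fewer.
Tgfbr1 intron: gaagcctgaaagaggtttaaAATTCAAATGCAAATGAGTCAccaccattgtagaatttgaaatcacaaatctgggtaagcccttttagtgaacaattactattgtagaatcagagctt

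The scores at this Tgfbr1 site were 19.7 for Oct4 on day 1, 11.1 for Oct4 on day 5, 29.8 for Oct4defSox2 on day 1, 24.7 for Oct4 S151M, 4.26 for Sox2 in Oct4-SK on day 1 and 6.29 for Sox2 in Oct6-SK on day 1. The other 7 libraries had none, among them Oct4 on day 7 and all Sox2 libraries of day 5. Within their own libraries, the POU summits lay at percentile 79.7 (Oct4, day 1), 61.4 (Oct4, day 5), 88.6 (Oct4defSox2, day 1) and 59.0 (Oct4 S151M) of the scores, and the Sox2 summits at percentile 5.51 (Oct4-SK) and 38.0 (Oct6-SK). This was the strongest member summit of Oct4 on day 5 and of Sox2 in Oct6-SK on day 1.

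On the palindromic MORE, POU factors bind as homodimers. It was matched with up to 1 mismatch to a consensus that allows A or C, or G or T, at some positions. The 4 strongest member summits of Oct4 S151M held a MORE match, each with 1 mismatch. The next 4 sequences are shown for that reason, on the plus strand with the match in capitals, at chr9:63623030-63623057 near Smad3 and, in introns of Tgfbr2, at chr9:116116337-116116364, chr9:116168480-116168507 and chr9:116160051-116160078. The Tgfbr2 sequences were added after their scores were seen.
Smad3, score 355: ttccacccATGCTTATGCATgcagccct
Tgfbr2, score 277: ttacagaaATACATATTCATctataaaa
Tgfbr2, score 233: tatgtacaGTGAATATGCATaaggagaa
Tgfbr2, score 188: tgcaatacATGCATATGTATgccaagag

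These 4 summits lay at or above percentile 95.3 of the Oct4 S151M library, and no other library had a summit at any of these sites. The next 2 summits by score, 187 in an intron of Tgfbr3 (also percentile 95.3) and 140 near Smad3 (percentile 93.2), held neither MORE nor MORE+1. A further 3 sequences were chosen after their values were seen. They show the POU element under the day 7 summit 5.47 kb upstream of Skil (chr3:31089548-31089578, minus strand, SoxOct in capitals) and the Sox elements at 2 sites shared by 4 libraries, in an intron of Tgfbr2 (chr9:116145224-116145247, plus strand) and near Smad3 (chr9:63633280-63633303, plus strand). The other 2 sites shared by 4 libraries, 38.1 kb upstream of Tgfbr2 and 39.6 kb upstream of Smad3, also had Sox2 summits but held no match to this element. The Sox element was matched exactly as CCATTGT or CCTTTGT followed by any base other than A.
Skil: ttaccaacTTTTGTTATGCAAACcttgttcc
Tgfbr2: gttgaggtCCATTGTCctgtttgc
Smad3: tccgcccaCCATTGTTcctcagaa

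In mm10 the ligand genes lie at chr7:25687002-25705077 (Tgfb1), chr1:186622792-186705989 (Tgfb2) and chr12:86056745-86079041 (Tgfb3), and the receptor genes at chr4:47353222-47414931 (Tgfbr1), chr9:116084293-116175360 (Tgfbr2) and chr5:107106570-107289629 (Tgfbr3). Smad3 lies at chr9:63646767-63757994, Smad7 at chr18:75367529-75395935 and Skil at chr3:31095058-31122577. Summit counts per member ranged from 10 to 39 over all libraries. The most were found at Tgfbr3, which has the longest window, and the fewest at Tgfb3. Per Mb of window, Tgfb3 had 81.8, Tgfb2 92.8 and Tgfb1 93.2 summits, the 6 other members had 128 to 171, and Smad7 had the highest density. Oct4 S151M supplied unequal shares of these counts, 22 of 39 at Tgfbr3 and 5 of 22 at Smad7. Without that library, a step chosen after seeing the data, the ligands had 40.9 (Tgfb3), 54.6 (Tgfb2) and 59.3 (Tgfb1) summits per Mb. Tgfbr3 had 60.1, near Tgfb1 and above Tgfb2 and Tgfb3, and the 5 other members had 78.4 to 132. The median density over members was 131 per Mb, against 112 for 47 other genes of the TGF-beta superfamily, 80.5 for all coding genes and 89.9 for the 9627 coding genes whose windows are of similar length.

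**Figure D1:**
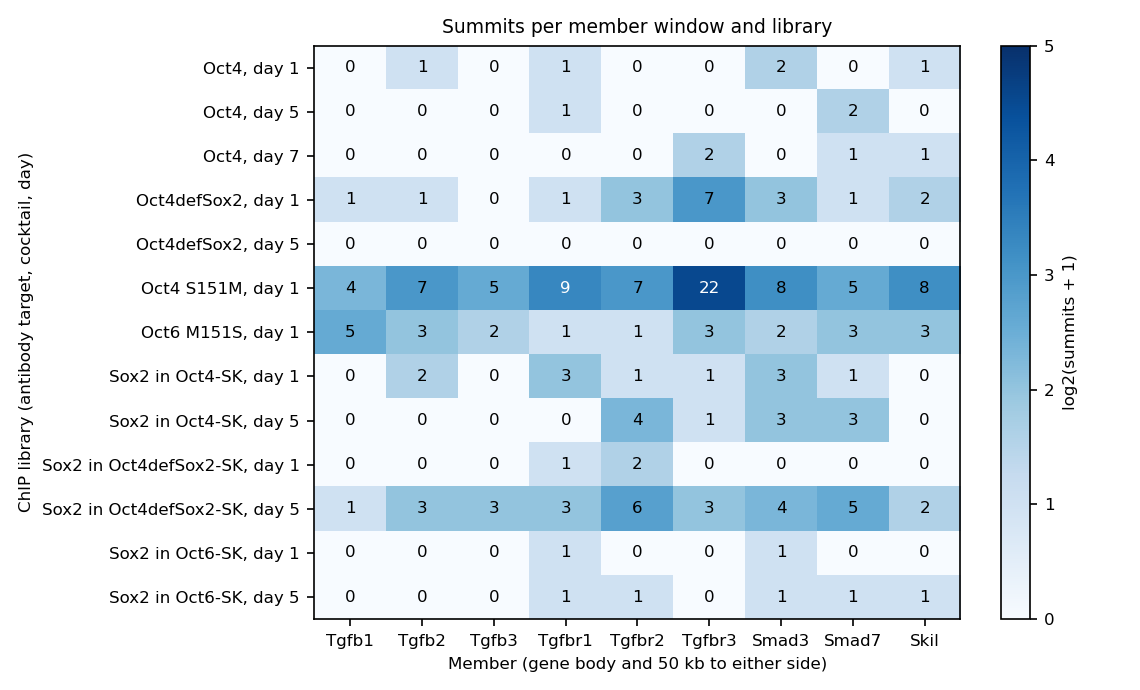
Number of summits in the window of each member (columns) in each ChIP library (rows), with the count printed in the cell and the colour on a log2(summits + 1) scale. Oct4 S151M had summits in every window, from 4 at Tgfb1 to 22 at Tgfbr3, and Oct4defSox2 had none on day 5.

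A longer window is more likely to hold a summit, and the median window was 161710 bp for members and 117433 bp for all coding genes, so the shares of coding gene windows given in brackets below are not matched for length. Among the 9627 windows of similar length (median 141340 bp) these shares were higher in each library, for instance 35.5% for Oct4 on day 1 and 73.0% for Sox2 in Oct4defSox2-SK on day 5.

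Wild-type Oct4 had few summits here, at 0.973, 0.897 and 1.58 times the density of all coding gene windows on days 1, 5 and 7. It had 5 on day 1, in 4 of 9 windows (29.8% of all coding gene windows had one), 3 on day 5, in 2 windows (25.4%), and 4 on day 7, in 3 windows (19%). Tgfb1, Tgfb3 and Tgfbr2 had none on any day. The day 1 summits lay at Tgfb2 (score 4.71), Tgfbr1 (19.7), Smad3 (13.8 and 21.9) and Skil (11.9). On day 5 they lay at Tgfbr1 (11.1) and at Smad7 (6.05 and 11.0), and on day 7 at Tgfbr3 (4.76 and 21.3), Smad7 (17.3) and Skil (16.6). These formed 10 sites, of which 2 were bound on 2 days and 0 on 3. Of all 12974 wild-type Oct4 sites of the series, 15.0% were bound on 2 days and 6.48% on 3.

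On day 5 or 7, 4 of 9 windows had a wild-type Oct4 summit (33.3% of coding gene windows, and 38.7% of those of similar length), namely Tgfbr1 on day 5 alone, Smad7 on both days, and Tgfbr3 and Skil on day 7 alone. At Smad7 the summits of day 5 (11.0) and day 7 (17.3) coincided 6.49 kb upstream of the gene, where Oct4 S151M also had one (8.46). Smad7 had no Oct4 summit on day 1. At Skil the day 1 summit (11.9) and the day 7 summit (16.6) were at separate sites, 7.58 kb and 5.47 kb upstream. At Smad3 both Oct4 summits belonged to day 1. With counts this low, a missing summit on a given day may be a weak one below the caller's threshold, which was not tested.

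Oct4defSox2 had 19 summits on day 1, in 8 of 9 windows (63.0% of coding gene windows), with none at Tgfb3. It had 7 at Tgfbr3, 3 each at Tgfbr2 and Smad3, 2 at Skil and 1 each at Tgfb1, Tgfb2, Tgfbr1 and Smad7. The highest scores were 30.6 at Smad3, 29.8 at Tgfbr1 and 27.6 at Tgfbr3. On day 5 it had 0 summits in the 9 windows (6.63% of coding gene windows had one). A count of 0 allows up to 1.97 summits per Mb (3 counts over the windows), above the 0.379 per Mb of that library over the genome, so a lack at these genes was not detectable in so small a library.

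Oct4 S151M had 75 summits, in 9 of 9 windows (90.0% of coding gene windows), and Oct6 M151S had 23, also in 9 of 9 (69.0%). The Oct4 S151M scores ranged from 4.75 to 355 with a median of 17.7, near the 19.5 of the whole library. By member the median was highest at Tgfbr2 (48.3) and lowest at Smad7 (13.6). Oct6 M151S scores at members reached only 5.75, at Tgfbr3, and 16 of the 23 were under 4. The -log10 q (p corrected for multiple testing) of the 23 ran from 0.18 to 1.85. A window counted as occupied by Oct6 M151S may thus rest on weak calls alone. Tgfb1 had 5 Oct6 M151S summits, the most of any member, against 4 of Oct4 S151M.

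**Figure D2:**
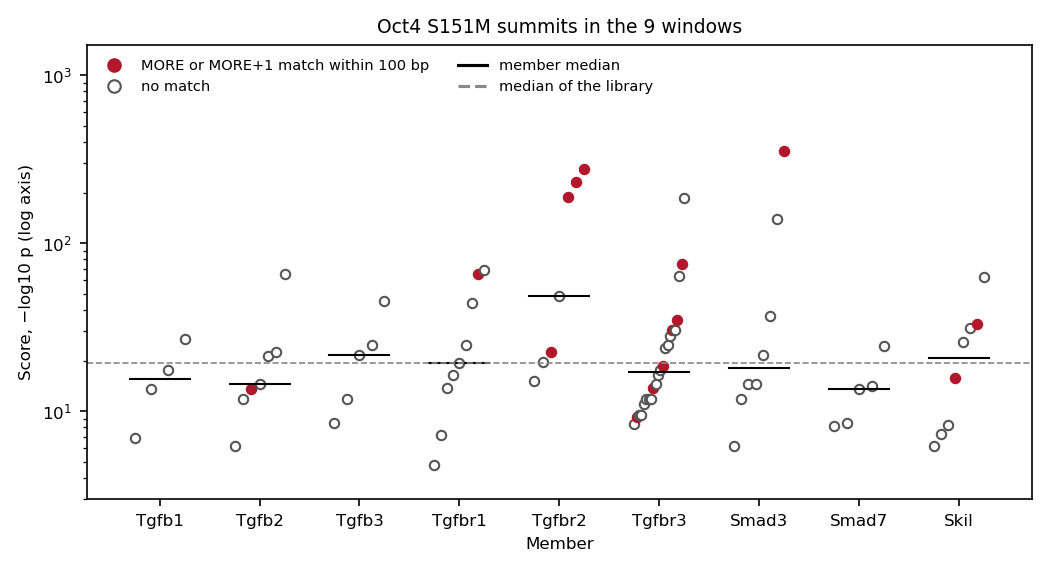
Scores (-log10 p, log axis) of the 75 Oct4 S151M summits by member, filled where a MORE or MORE+1 match lies within 100 bp, with the member's median as a bar and the median of the library as a dashed line. The 3 filled points of Tgfbr2 from 188 to 277 and that of Smad3 at 355 lie above all others, with an open point of Tgfbr3 at 187 next.

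In Oct4-SK, Sox2 had 11 summits on day 1, in 6 of 9 windows (46.2% of coding gene windows), and 11 on day 5, in 4 windows (30.0%). In Oct4defSox2-SK it had 3 on day 1, in 2 windows (18.6%), and 30 on day 5, in 9 windows (66.1%). In Oct6-SK it had 2 on day 1, in 2 windows (10.5%), and 5 on day 5, in 5 windows (14.3%).

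Since the libraries differ in yield, summits per Mb in the 9 windows were set against those in the windows of all coding genes, a comparison added after seeing the data. On day 5 the ratio for Sox2 was 2.71 in Oct4-SK (exact Poisson 95% interval 1.35 to 4.85), 2.02 in Oct4defSox2-SK (1.36 to 2.88) and 2.78 in Oct6-SK (0.904 to 6.50). On day 1 it was 1.18 (0.588 to 2.11), 0.865 (0.178 to 2.53) and 1.15 (0.139 to 4.15). Against coding gene windows the interval lay above 1 in 2 of the 13 libraries, both Sox2 on day 5. Against the whole genome it lay above 1 in 5, namely Sox2 on day 5 in Oct4-SK at 3.39 (1.69 to 6.07), Oct4defSox2-SK at 2.49 (1.68 to 3.55) and Oct6-SK at 3.34 (1.09 to 7.81), Oct4 S151M at 1.32 (1.04 to 1.66) and Oct6 M151S at 1.80 (1.14 to 2.70). The ratio of wild-type Oct4 was 0.973 (0.316 to 2.27) on day 1, 0.897 (0.185 to 2.62) on day 5 and 1.58 (0.430 to 4.04) on day 7, that of Oct4defSox2 on day 1 was 0.979 (0.589 to 1.53), that of Oct4 S151M was 1.18 (0.931 to 1.48) and that of Oct6 M151S was 1.47 (0.932 to 2.21).

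Tgfbr2 held 4 of the 11 Sox2 summits of day 5 in Oct4-SK. Without that gene the ratio was 1.97 (0.792 to 4.06) in Oct4-SK, and without Smad3 or Smad7 it was 2.29 (0.987 to 4.51) or 2.15 (0.929 to 4.24). In Oct4defSox2-SK the interval lay above 1 whichever single member was left out, a step chosen after seeing the data, and the ratio was 1.84 (1.18 to 2.74) without Tgfbr2. In Oct6-SK the interval rose above 1 without Tgfb2, at 3.16 (1.03 to 7.38), or without Tgfbr3, at 3.42 (1.11 to 7.98). With windows reaching 10 kb the intervals of both included 1, at 1.75 (0.477 to 4.48) and 1.77 (0.991 to 2.92), and with 100 kb Oct4-SK had a ratio of 1.93 (0.9995 to 3.38) and Oct4defSox2-SK one of 1.76 (1.26 to 2.40). With scores of at least 10 the ratio in Oct4-SK was 2.88 (0.935 to 6.72), and that in Oct4defSox2-SK was 1.78 (0.918 to 3.10). With the 1038 strongest summits of each library, 2 and 1 Sox2 summits were left in the windows, at ratios of 2.75 (0.333 to 9.94) and 1.44 (0.0365 to 8.03). The direct comparison of days used the share of each library's summits that fell in the windows. In Oct4-SK this share was 0.0723% on day 1 and 0.189% on day 5, a difference of 0.116 points (Newcombe 95% interval 0.0154 to 0.269). In Oct4defSox2-SK the difference was 0.0873 points (-0.0213 to 0.156) and in Oct6-SK 0.125 points (-0.0697 to 0.379), so in both the interval included 0.

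**Figure D3:**
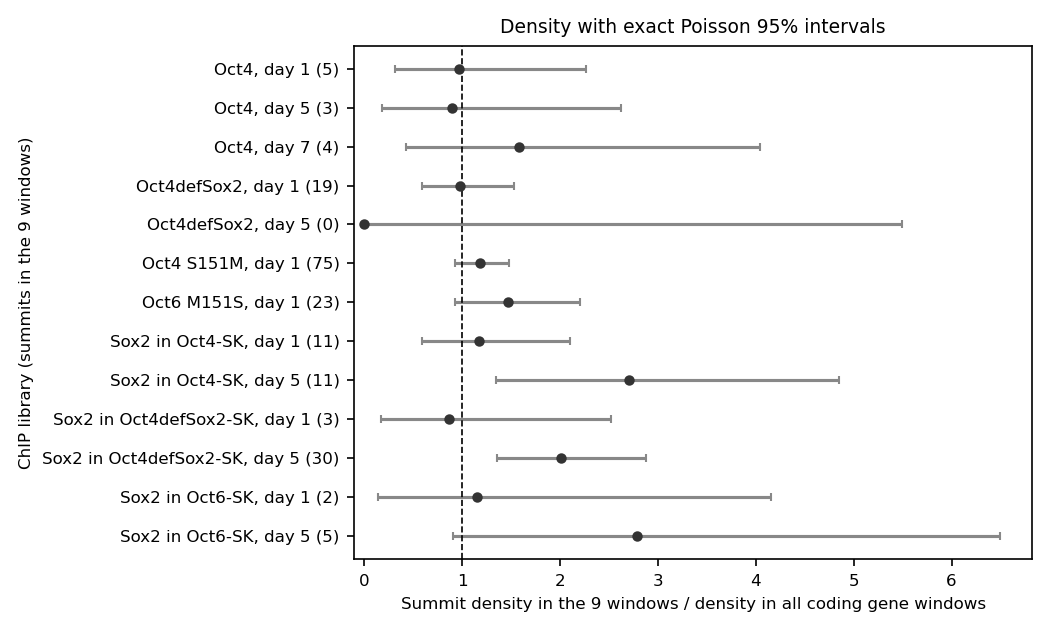
Summits per Mb in the 9 windows divided by summits per Mb in the windows of all coding genes, per library, with exact Poisson 95% intervals and the number of summits in brackets; the dashed line marks 1. The Sox2 points of day 5 lie from 2.02 to 2.78, and those of day 1 from 0.865 to 1.18.

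Sox2 counts per member and day below sum the cocktails, whose libraries differ in size. The Sox2 library of Oct4defSox2-SK held 5794 summits on day 1 and 21563 on day 5. Tgfbr2, the type II receptor, had no wild-type Oct4 summit and the highest Sox2 count, 3 on day 1 and 11 on day 5 (6 of these in Oct4defSox2-SK). An intronic site 30.1 kb from its 5′ end (chr9:116145257-116145302) had Sox2 scores of 14.4 in Oct4-SK, 28.8 in Oct4defSox2-SK and 16.6 in Oct6-SK on day 5, and of 9.56 in Oct4defSox2-SK on day 1. It was the only site of Tgfbr2 bound by Sox2 in all cocktails on day 5, and no POU antibody had a summit there. A second site, 38.1 kb upstream (chr9:116213385-116213469), had Sox2 scores of 8.62 on day 1 and 17.0 on day 5 in Oct4-SK, and of 13.6 and 8.62 in Oct4defSox2-SK. The order of the days was thus opposite in these cocktails, with 1 library behind each value. The highest Sox2 score at any member, 35.0, lay 34.4 kb into Tgfbr2 in Oct4defSox2-SK on day 5, where Oct6 M151S scored 4.34.

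Smad7, the receptor inhibitor, had 1 Sox2 summit on day 1 and 9 on day 5 (5 of these in Oct4defSox2-SK). The strongest formed a site with scores of 26.4 in Oct4-SK, 17.4 in Oct4defSox2-SK and 15.6 in Oct6-SK on day 5, all at or above percentile 82.9 of their libraries. It lies 67.1 kb downstream of the 5′ end of Smad7, in a UTR of the neighbouring gene Ctif. Tgfbr1 and Smad3 had 5 and 4 Sox2 summits on day 1 and 4 and 8 on day 5. At Tgfbr1 a site in its UTR, 60.8 kb from the 5′ end, scored 32.7 in Oct4defSox2-SK and 11.2 in Oct6-SK on day 5. Of the ligands, Tgfb1 and Tgfb3 had Sox2 summits only in Oct4defSox2-SK on day 5, with scores of 6.41 at Tgfb1 and of 4.13, 7.24 and 8.62 at Tgfb3.

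At Smad3, the kinase substrate of Tgfbr1, 3 sites were shared by 3 or more libraries. The site 57.0 kb into the gene (chr9:63700966-63701058) had POU summits, with scores of 21.9 for Oct4 on day 1, 30.6 for Oct4defSox2 on day 1 and 36.8 for Oct4 S151M. No Sox2 summit merged with it, but one in Oct4defSox2-SK on day 5 (11.6) lay 185 bp from its last summit, beyond the 100 bp used here and within the 250 bp of an alternative. It held the strongest member summits of both Oct4 and Oct4defSox2 on day 1. The site 39.6 kb upstream (chr9:63797578-63797695) had Oct4 on day 1 (13.8), Oct4 S151M (14.5) and Sox2 in Oct4-SK on day 1 (7.66) and day 5 (6.80). The third (chr9:63633171-63633263), in an intron of the neighbouring gene Aagab, had Oct4defSox2 on day 1 (15.2), Oct4 S151M (14.5), Sox2 in Oct6-SK on day 1 (5.20) and Sox2 in Oct4defSox2-SK on day 5 (16.1).

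**Figure D4:**
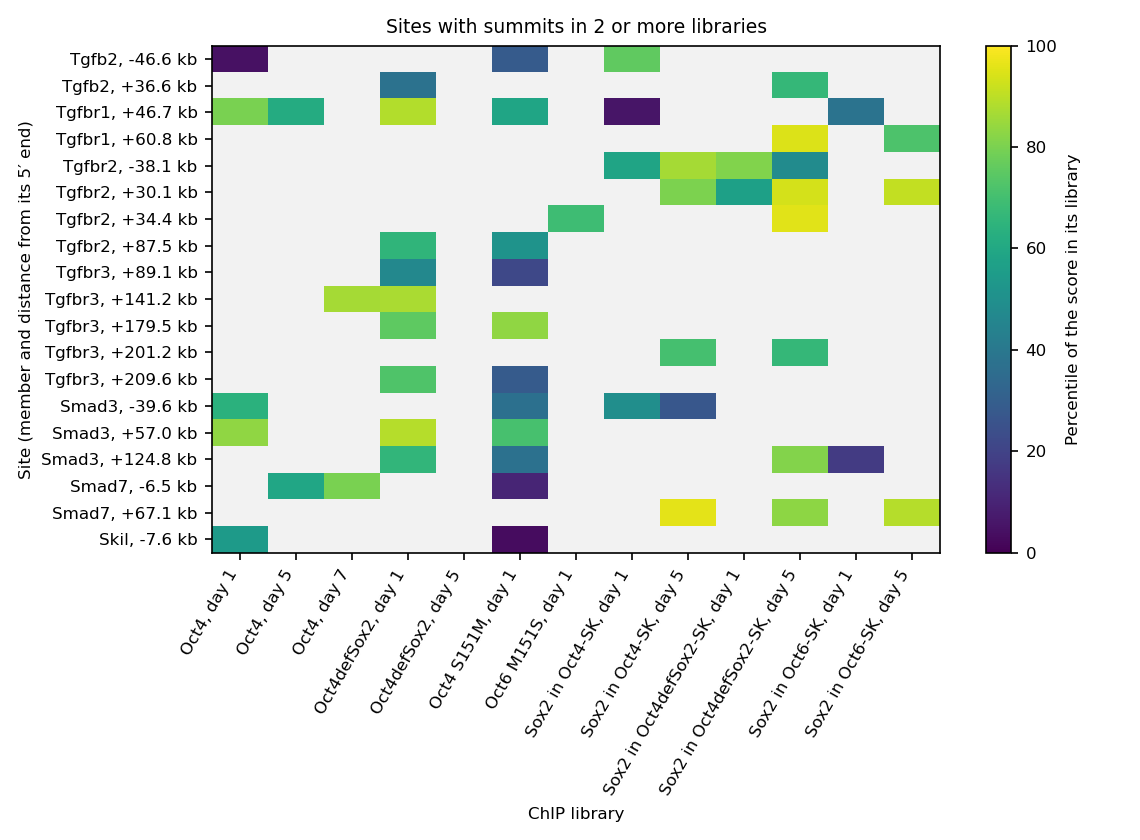
The 19 sites with summits in 2 or more libraries (rows, by member and distance from its 5′ end) against the libraries (columns), coloured by the percentile of the score within its library, grey where there was no summit. The Tgfbr1 site at 46.7 kb fills 6 columns. The Tgfbr2 sites 30.1 kb into the gene and 38.1 kb upstream of it fill Sox2 columns only.

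Most sites were not shared. Of the 156, 137 had a summit in 1 library (87.8%, Wilson 95% interval 81.8 to 92.1), 10 in 2, 4 in 3, 4 in 4 and 1 in 6. Of all 172804 sites of the series, merged in the same way, 84.2% had a summit in 1 library. Oct4 S151M supplied 64 of the single-library sites, and Oct6 M151S and Sox2 in Oct4defSox2-SK on day 5 supplied 22 each. POU antibodies alone marked 107 sites (68.6%, 60.9 to 75.4), Sox2 alone 43 (27.6%, 21.2 to 35.1), and both 6 (3.85%, 1.77 to 8.14). Over the whole series these shares were 75.2%, 17.9% and 6.89%. Tgfb1 and Tgfb3 had 11 and 10 sites, none of them shared, and Tgfbr3 had 34, of which 5 were shared.

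The 5 Oct4 summits of day 1 overlapped other libraries as follows. All 5 lay within 100 bp of an Oct4 S151M summit, against 78.3% of the other Oct4 summits of day 1, a difference of 21.7 points (Newcombe 95% interval -21.8 to 22.6). With a distance of 50 bp the shares were 60.0% and 62.1%. A Sox2 summit of day 1 in the same cocktail lay at 3 of 5 (60.0%), against 19.8% elsewhere, a difference of 40.2 points (3.23 to 68.4). This was the only interval among the 24 shares compared with the rest of the genome that left out 0, and it rests on distances and weak summits. With a distance of 50 bp the share was 20.0%, against 11.5% elsewhere (difference 8.53 points, -7.86 to 51.0), and with scores of at least 10 it was 0 of 4. Oct4defSox2 on day 1 lay at 2 of 5 (rest 57.5%) and Oct4 on day 5 at 1 of 5 (rest 24.5%), where both intervals included 0. None of the 19 Oct4defSox2 summits of day 1 had a Sox2 summit of the same cocktail and day, against 8.73% elsewhere (difference -8.73 points, -9.05 to 8.09), and none of 23 Oct6 M151S summits lay at an Oct4 S151M summit, against 7.10% (difference -7.10 points, -7.44 to 7.22).

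Sharing among Sox2 libraries was compared in the same way. Of the 11 Sox2 summits in Oct4-SK on day 5, 4 (36.4%) had one in Oct4defSox2-SK on day 5, against 38.4% of the others, and 2 (18.2%) had one in Oct6-SK on day 5, against 16.7%. Of the 11 on day 1, 2 (18.2%) were found again on day 5, against 7.22%, a difference of 11.0 points (-2.09 to 40.5).

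Most sites were distant from the starts of the members, which windows this long make likely, and the feature counts have no share over all sites beside them. Introns held 92 sites, intergenic sequence 50, UTRs 9, exons of non-coding genes 4 and a coding exon 1. The body of the member held 73. For 108 sites the nearest coding start belonged to the member, and for 48 it belonged to another gene, so the assignment of those to the pathway follows the window alone. At Tgfb1 only 3 of 11 sites and at Tgfb3 only 4 of 10 were nearest to the member's start, whereas at Tgfbr1 and Smad7 all 16 and 18 were. Of the 9 members, 3 had a summit within 1 kb of an own start in any library, against 27.4% of coding genes, namely Tgfbr1 (90 bp, score 5.95), Skil (202 bp, 7.24) and Smad7 (378 bp, 9.53), each with Sox2 in Oct4defSox2-SK on day 5. Skil had another 713 bp away, of Oct4defSox2 on day 1 (5.93).

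**Figure D5:**
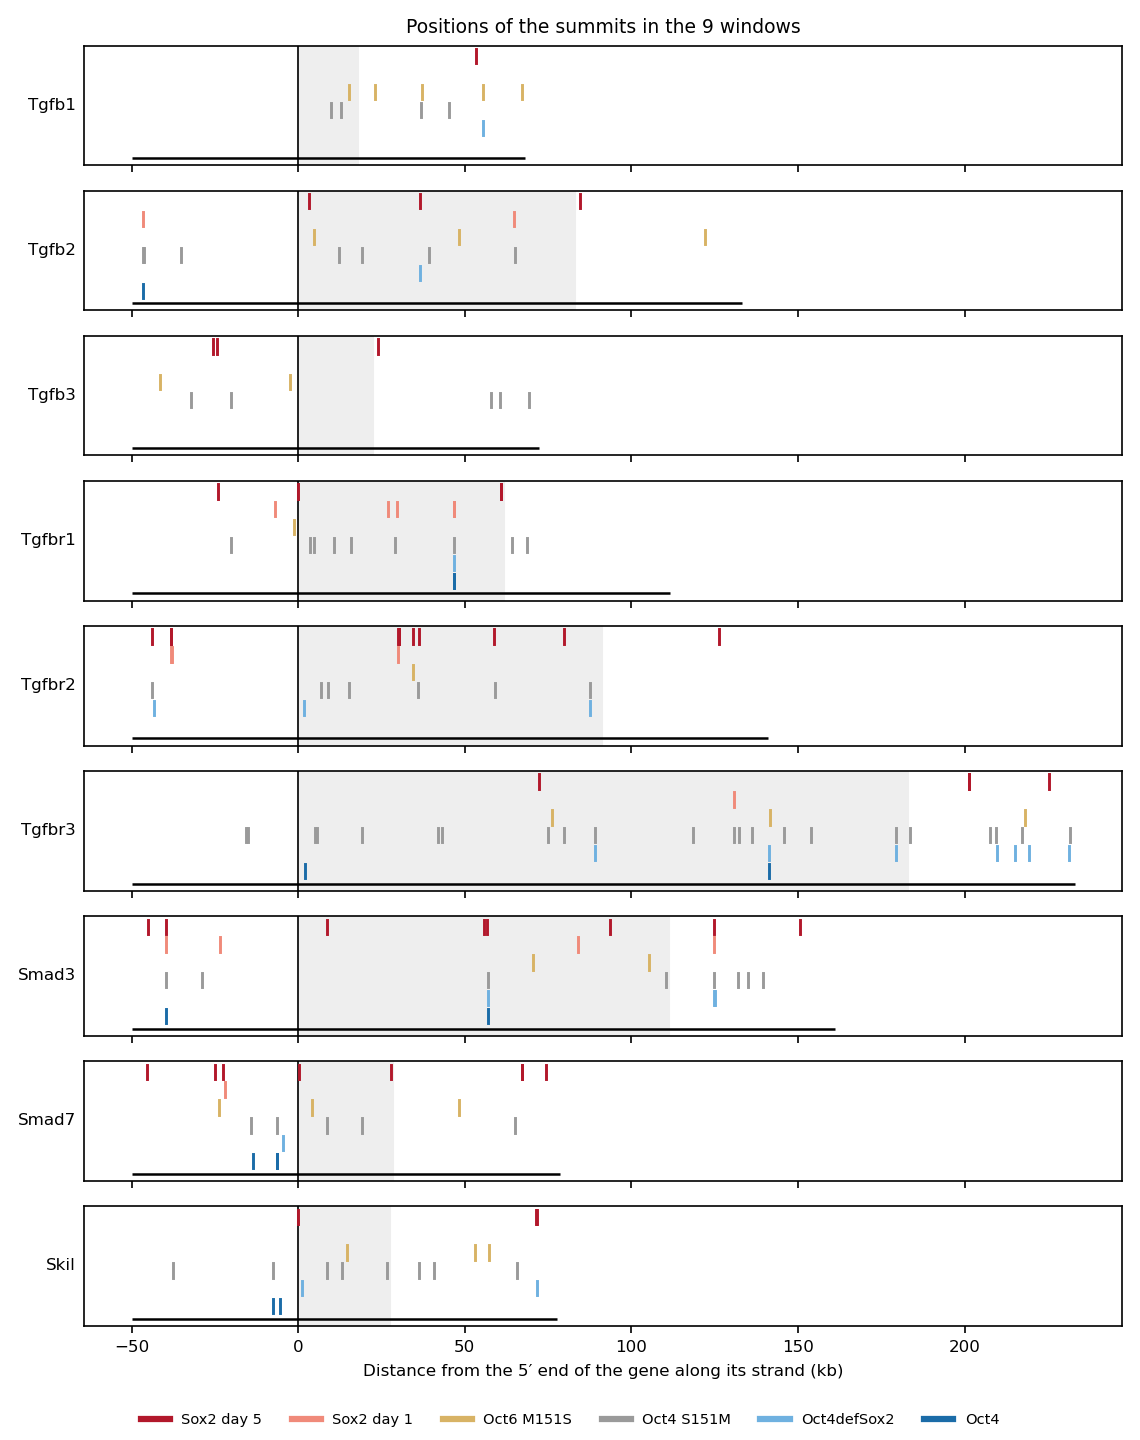
Positions of the 191 summits relative to the 5′ end of each member along its strand (kb), with a tick per summit coloured by factor, the gene body shaded and the extent of the window as a black bar. Summits lie across whole windows, and those of Sox2 on day 5 touch the 5′ ends of Tgfbr1, Smad7 and Skil.

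The bases before the start of Tgfbr1 are printed because a Sox2 summit of day 5 fell 90 bp upstream of it (chr4:47352972-47353221, plus strand, GRCm38.p6, RefSeq). The capitals mark an exact match to the element of Klf factors, searched as GGGCGGGGC, GGGCGTGGC, GGGTGGGGC or GGGTGTGGC on both strands. Of 32851 promoters of 300 bases in the same table, 16.0% hold this element, and Klf4 itself was not precipitated.
Tgfbr1 promoter: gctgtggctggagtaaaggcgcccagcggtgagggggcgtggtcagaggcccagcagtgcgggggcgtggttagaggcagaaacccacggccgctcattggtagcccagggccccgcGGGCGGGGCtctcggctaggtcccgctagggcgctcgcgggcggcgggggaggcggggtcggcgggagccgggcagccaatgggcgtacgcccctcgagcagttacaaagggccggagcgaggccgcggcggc

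Motifs were counted within 100 bp of each site and in the same windows moved 2 kb to either side. MORE, or MORE+1 with a base inserted at its centre, lay at 15 of 156 sites (9.62%, Wilson 95% interval 5.91 to 15.3), against 0.321% of the moved windows. All 15 were sites of Oct4 S151M, 6 at Tgfbr3, 4 at Tgfbr2, 2 at Skil and 1 each at Tgfb2, Tgfbr1 and Smad3. In that library, 15 of 75 member summits (20.0%) held one, against 24.5% of the other summits, a difference of -4.46 points (-11.9 to 5.96). Their median score was 32.8, against 15.8 for the 60 without, and over the rest of the library these medians were 30.3 and 17.6. With 1 mismatch fewer, the share at members was 1.33%.

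SoxOct lay at 5 of 156 sites (3.21%, 1.38 to 7.28), against 0.962% of the moved windows, with 3 of them at Skil and 1 each at Tgfbr1 and Tgfbr3. No match was left with 1 mismatch fewer. The octamer lay at 3 sites (1.92% against 1.60%) and AP-1 at 9 (5.77%, 3.06 to 10.6, against 3.53%). In the Oct4 S151M library AP-1 lay at 6.67% of member summits and 7.72% of the others. The palindromic SMAD element GTCTAGAC was found at 0 of 156 sites and in 0.321% of the moved windows.

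The Sox element followed the Sox2 antibody. It lay at 9 of the 49 sites with a Sox2 summit (18.4%, 9.98 to 31.4) and at 3 of the 107 without (2.80%, 0.958 to 7.92), a difference of 15.6 points (5.74 to 28.7), where the moved windows had 6.73%. MORE or MORE+1 showed the opposite split, at 0 of 49 and at 15 of 107 (14.0%), a difference of -14.0 points (-21.8 to -5.00). Both antibodies' sites come from the same windows, and many of the sites without Sox2 come from the Oct4 S151M library alone.

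The other genes of the superfamily were read in the same way. Of 47 such windows, with receptors, Smads, latency proteins, bone morphogenetic proteins and target genes among them, 21 had an Oct4 summit on day 1, 11 on day 5 and 8 on day 7 (44.7%, 23.4% and 17.0%). Oct4defSox2 had one in 34 on day 1 (72.3%, against 63.0% of all coding gene windows) and in 1 on day 5 (2.13%, against 6.63%). Sox2 in Oct4-SK had one in 24 on day 1 (51.1%, against 46.2%) and in 19 on day 5 (40.4%, against 30.0%). In Oct4defSox2-SK it had one in 12 (25.5%, against 18.6%) and 38 (80.9%, against 66.1%), so both shares rose between days. In Oct6-SK it had one in 7 (14.9%, against 10.5%) and 8 (17.0%, against 14.3%). These shares are not matched for window length, and no density ratio was computed for these genes. The number of libraries with a summit ranged from 2 to 11 over these genes with a median of 5, and the members had a median of 7. The windows of these genes were shorter, with a median of 132557 bp, and coding genes with windows of similar length to those of members had a median of 5 libraries.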

How the data were processed

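The 9 genes, the window rule and the gene lists were chosen with earlier results of these data known. Per the labels and the study's methods, the authors aligned reads to mm10 with Bowtie2 (2.2.5 in the submitters' processing notes), removed low-quality and duplicate reads with SAMtools and called peaks with MACS2, with summits; the control used is not given in the sources used here. The deposited summits carry a score as -log10 p. The deposited peaks, read here for Oct4 S151M and Oct6 M151S, also hold a ratio (fold enrichment over control) and a -log10 q-value. Neither was used for results, apart from the q-value range given for Oct6 M151S. Looser calling or lower depth changes the number of summits, so libraries were compared by density and shares.

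Summits were counted in windows, shared within 100 bp and merged by chaining at 100 bp (Python 3.11.15, pandas 2.3.3, scipy 1.17.1). Motifs were scanned on both strands in GRCm38.p6. Intervals are exact Poisson, Wilson or Newcombe at 95%, and the functions were tested on simulated data. All 9 members are named. Named sites are, per member, the site in most libraries (ties by mean percentile) and, per library, the member summit of highest score. Alternatives were other window sizes, score minimums, equal numbers of summits, 1 summit per peak, other sharing distances, narrower motif windows, stricter motifs and a wider start distance. Added after seeing the data were leaving out 2 libraries or each member in turn, and the density ratios over coding gene windows. Of 48 listed pathway genes 47 were found. No sequence is shown for Smad7.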

Additional observations from a re-analysis of the deposited data

How the results depend on the processing

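Over 13 alternatives and 20 results, 222 of 248 values stayed within the interval, or within 1.5 times the count, of the reported one, and 26 moved. This tally does not measure robustness. Many values could not move because the alternative did not touch them, and wide intervals from few summits are hard to leave. With windows reaching 10 kb there were 109 summits and 89 sites, and 0% of the Sox2 Oct4-SK day 1 summits were found again on day 5. With scores of at least 10 there were 106 summits (69.4 per Mb), 85 sites and 38 occupied pairs of member and library (63 of 117 as reported), no member had a summit within 1 kb of its start, and 0% of the Oct4 day 1 summits had Sox2 and 0% of the Sox2 day 1 summits were found again; Oct6 M151S lost all its summits. With the 1038 strongest summits of each library there were 9 summits (5.90 per Mb), 8 sites, 9 occupied pairs, 0 members with a summit at the start and SoxOct at 12.5% of sites, and of the Sox2 Oct4-SK day 5 summits 0% were shared with Oct4defSox2-SK and 50.0% with Oct6-SK. A sharing distance of 50 bp gave 20.0% of Oct4 day 1 summits with Sox2 and 0% of Sox2 day 1 summits found again. With 1 mismatch fewer, MORE or MORE+1 fell to 1.33% of Oct4 S151M summits and SoxOct to 0% of sites. A start distance of 5 kb gave 7 members. Without Oct4 S151M and Oct6 M151S, an alternative chosen after seeing the data, there were 93 summits (60.9 per Mb) and 70 sites. Where these alternatives do not remove summits by construction, the cause was not tested. No value could be given for 12, since their summits were left out.

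Numbers were small, with 2 to 75 summits per occupied library and no replicate. Unequal yield and calling between libraries moves every count, and a summit missing at a site may be present below threshold.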
